A study of Homo sapiens with 6 samples.

Results

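hsa-miR-455-3p, hsa-miR-455-5p, hsa-miR-140-3p and hsa-miR-140-5p are the mature products of 2 hairpins, miR-455 and miR-140. They were taken by name, and all 4 were found among the 2588 mature miRNAs counted in the series. The 4 were chosen by earlier results of the same libraries, the counts in which miR-455 was higher in treated cells of both lines. Their counts and ratios are therefore given as a description, with no test.

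The study asked how TGF-β1, a cytokine that moves epithelial cells toward a mesenchymal state, changes small RNAs in A549 and BEAS-2B cells. A549 derives from a human lung adenocarcinoma, and BEAS-2B is a line of immortalised human bronchial epithelium. Both were labelled WT, and each was grown for 48 h with no TGF-β1 (control), 1 ng/mL (low dose) or 5 ng/mL (high dose). The treatment protocol in the labels names medium with 1% FBS. Each of the 6 groups was 1 small RNA library, so there was no replicate error, no p-value was computed, and every interval covers counting error only.

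miR-455 lies in an intron of COL27A1, which encodes a fibrillar collagen of cartilage, and miR-140 lies in an intron of WWP2, which encodes an E3 ubiquitin ligase. Both hairpins are known from chondrocytes, the cells that build cartilage, where miR-140 is needed for normal growth of the skeleton. A mature miRNA guides a silencing complex to messenger RNAs mainly through its seed, a short stretch near its 5′ end, and TGF-β receptors and SMAD proteins are among the targets described for these miRNAs in cartilage.

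The mature sequences are shown because the arms of a hairpin were counted as separate miRNAs and each has its own seed. Capitals mark bases 2 to 8, the seed, in the RefSeq sequences (5′ to 3′).
hsa-miR-455-3p: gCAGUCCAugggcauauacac
hsa-miR-455-5p: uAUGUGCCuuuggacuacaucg
hsa-miR-140-3p: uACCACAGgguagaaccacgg
hsa-miR-140-5p: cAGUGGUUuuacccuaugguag
The 4 seeds were all different. Of the 2588 counted names, 2281 were found in the RefSeq table, and 0 of the others among them shared a seed with any of the 4. The closest other mature sequence was miR-4277 for miR-455-3p, at 5 single-base changes, insertions or deletions. For the other 3 the closest differed by 7 or 8, so none of the 4 had a near-identical copy among the sequences compared.

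The hairpins are shown to place the arms within them. Capitals mark the 5p arm and then the 3p arm.
MIR455: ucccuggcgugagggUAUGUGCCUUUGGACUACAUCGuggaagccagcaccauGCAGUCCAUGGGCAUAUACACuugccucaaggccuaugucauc
MIR140: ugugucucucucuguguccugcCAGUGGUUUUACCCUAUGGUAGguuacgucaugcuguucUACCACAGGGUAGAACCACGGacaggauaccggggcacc
In GRCh38, MIR455 is at chr9:114209434-114209529 on the plus strand, in intron 10 of the 61-exon principal transcript of COL27A1 (GENCODE release 29). MIR140 is at chr16:69933081-69933180 on the plus strand, in intron 16 of the 24-exon principal transcript of WWP2. Each hairpin is on the strand of its host gene, 0 host transcripts had an exon over it, and no other annotated gene overlapped it. The arms are separated by 16 bases in MIR455 and by 17 bases in MIR140. The messenger RNAs of COL27A1 and WWP2 were not analysed here.

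Library totals ranged from 633318 to 900424 counts, and a count of 0 allowed up to 3 counts, which is 3.33 to 4.74 CPM, the count as a share of the library total on a fixed scale. Levels below are counts scaled between libraries by the trimmed mean of M-values (TMM). The normalised data value (ND) is log2(normalised count + 1), and a log2 ratio is a difference between ND values. A miRNA was called higher or lower where ND was at least 8 (a normalised count of 255) in either library and the fold change was at least 1.4. Both cutoffs are those of the study. That either library could meet the ND cutoff, and the TMM scaling behind it, were choices made here, as the paper does not state these points. The BEAS-2B control stood apart, with a TMM factor of 1.32 against 0.829 to 1.02 in the other 5, and miR-21-5p took 35.4% of its counts against 47.6% to 57.2% in the others. Ratios in the BEAS-2B line depend on that scaling and are given under other scalings where it matters. The epithelial markers miR-205-5p and miR-141-3p were at 0 to 2 and at 1 to 8 counts, and miR-200b-3p was at 139 to 356 counts.

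Both arms of miR-455 were higher in TGF-β1-treated than in control cells, in both lines and at both doses. The count of miR-455-3p was 134 in control A549 cells, 365 at the low dose and 484 at the high dose. The BEAS-2B values were 150, 456 and 565. The 4 treated libraries lay above both controls, and the counting intervals of treated and control libraries did not overlap within either line.

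In A549 cells the normalised count of miR-455-3p was 139 without TGF-β1, 366 at the low dose and 563 at the high dose. The BEAS-2B values were 115, 528 and 554. The log2 ratio at the high dose was 2.01 in A549 cells (95% counting interval 1.74 to 2.30) and 2.25 in the BEAS-2B line (2.00 to 2.53). At the low dose it was 1.39 (1.10 to 1.69) and 2.18 (1.92 to 2.47). miR-455-3p thus had the highest of 125 log2 ratios in the BEAS-2B line at the high dose and of 120 at the low dose, and the 8th of 141 in A549 cells at the high dose.

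The 5p arm followed the same order of treated above control. The count of miR-455-5p was 204, 638 and 579 in A549 cells and 177, 440 and 530 in the BEAS-2B line, in the order control, low dose, high dose. Its normalised count was 212, 641 and 674 in A549 cells, and 136, 509 and 519.6 in the BEAS-2B line. In both lines most of the difference from control was already present at the low dose. The log2 ratio at the high dose was 1.66 in A549 cells (1.43 to 1.90) and 1.92 in the BEAS-2B line (1.68 to 2.19). At the low dose it was 1.59 (1.36 to 1.83) and 1.90 (1.65 to 2.16).

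**Figure D1:**
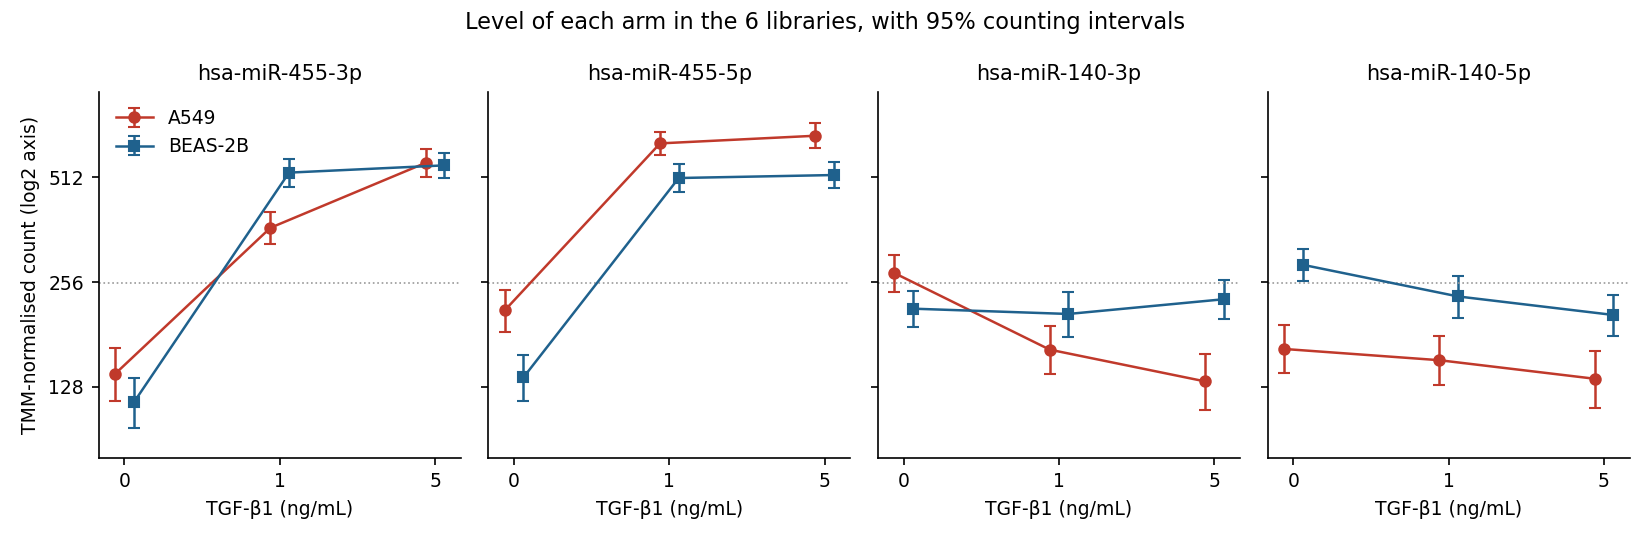
TMM-normalised count (log2 axis) of the 4 mature miRNAs against TGF-β1 dose (ng/mL), with A549 cells as circles and BEAS-2B cells as squares. Each point is 1 library, bars are exact 95% counting intervals, and the dotted line is the normalised count of 255 that the ND criterion asks for. Both arms of miR-455 lie under the line in the controls and above it in the treated libraries, while miR-140-3p in A549 cells goes from 272 to 133.

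Both miR-455 arms were called higher in each of the 4 comparisons with control. The share of tested miRNAs called higher was 27.0% in A549 cells at the high dose and 27.0% at the low dose. The BEAS-2B values were 20.0% at the high dose and 15.8% at the low dose. Nothing is read from the members' calls, because these contrasts chose them. Both arms had an ND under 8 in the control libraries (from 6.86 to 7.74) and met the criterion only through the treated library. With an ND of at least 8 required in both libraries, 0 of the 4 miRNAs would have been tested in any comparison with control.

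The miR-455 ratios lay beyond the upper quartile of the tested miRNAs. This place, like the ranks above, describes values that chose the members and is no added support. The median log2 ratio over all tested miRNAs at the high dose was -0.03 in A549 cells (quartiles -0.49 and 0.55) and -0.08 in the BEAS-2B line (quartiles -0.38 and 0.30). Among the 9 scalings tried, both arms were called higher in 9 of 9 in all 4 comparisons. For miR-455-3p the log2 ratio at the high dose ranged from 1.64 to 2.16 in A549 cells and from 1.85 to 2.43 in the BEAS-2B line. For miR-455-5p it ranged from 1.29 to 1.82 and from 1.52 to 2.11.

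**Figure D2:**
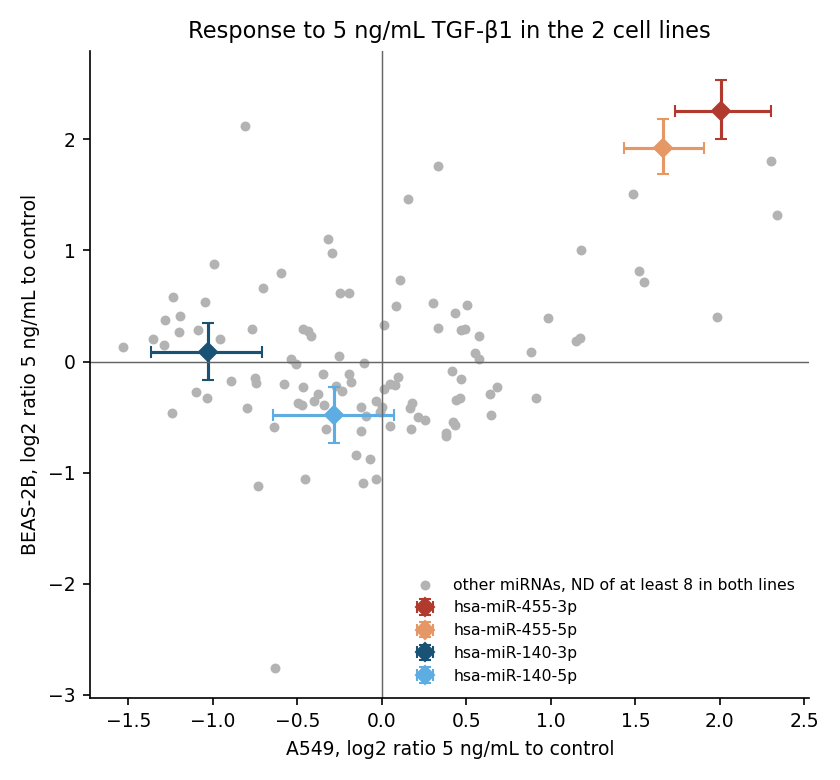
Log2 ratio of the high dose to control in A549 cells (x axis) and BEAS-2B cells (y axis). Grey points are other miRNAs that met the ND criterion in both lines, coloured diamonds are the 4 mature miRNAs, and bars are 95% counting intervals of 1 library against 1 library. Both arms of miR-455 lie at the upper right, miR-140-3p lies at -1.03 in A549 cells and 0.09 in the BEAS-2B line, and miR-140-5p lies at -0.28 and -0.48.

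The 2 doses shared a control library within each line, so they are also compared directly. From the low to the high dose, miR-455-3p differed in A549 cells by a log2 ratio of 0.62 (0.42 to 0.82) and was called, where 16.9% of tested miRNAs were called in either direction. It was higher in 9 of 9 scalings and called in 8. In BEAS-2B cells its ratio of high to low dose was 0.07 (-0.11 to 0.25). There 2 of the 4 miRNAs met the ND criterion and 0 were called, against a background of 6.61%. For miR-455-5p the ratio was 0.07 in A549 cells and 0.03 in the BEAS-2B line, and its sign varied with the scaling in both. The dose ratio of miR-140-3p was -0.30 (-0.66 to 0.05) in A549 cells and 0.14 (-0.15 to 0.43) in the BEAS-2B line, and that of miR-140-5p was -0.18 in each, with intervals that included 0.

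Between the lines, the miR-455 ratios to control at the high dose lay close to each other. The A549 log2 ratio minus the BEAS-2B log2 ratio was -0.25 (-0.63 to 0.13) for miR-455-3p and -0.26 (-0.60 to 0.07) for miR-455-5p at the high dose. At the low dose it was -0.80 (-1.19 to -0.41) and -0.31 (-0.65 to 0.03). Under TMM, only for miR-455-3p at the low dose did the counting interval exclude 0, with the smaller ratio in A549 cells. This depended on the scaling. With no scaling its A549 and BEAS-2B ratios at the low dose were 1.44 and 1.60. At the high dose, total-count scaling gave the larger ratio in A549 cells, at 2.16 and 1.85 for miR-455-3p and 1.82 and 1.52 for miR-455-5p. Variation between cultures is not in the counting intervals.

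miR-140-3p was lower in TGF-β1-treated A549 cells, while in the BEAS-2B line its ratio to control lay near 0 and changed sign with the scaling. Its count was 261, 163 and 114 in A549 cells in the order control, low dose, high dose, and 279, 179 and 233 in the BEAS-2B line. The normalised count in A549 cells was 272, 164 and 133, and the intervals of both treated libraries lay below that of the control. The BEAS-2B values were 215, 207 and 228, with overlapping intervals.

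The log2 ratio of miR-140-3p in A549 cells was -1.03 at the high dose (-1.36 to -0.71) and -0.73 at the low dose (-1.02 to -0.44). It was called lower in both, where 26.2% and 21.9% of tested miRNAs were called lower, and it was below 0 in 9 of 9 scalings and called in 8 of 9 at each dose. Its control ND was 8.09, and its treated values were 7.36 and 7.06. In BEAS-2B cells the log2 ratio was 0.09 at the high dose (-0.17 to 0.35) and -0.05 at the low dose (-0.33 to 0.23), under the ND criterion at both doses. There its sign depended on the scaling, with values from -0.32 to 0.27 at the high dose and from -0.64 to 0.012 at the low dose. Under TMM, the difference between the lines in this ratio, A549 minus BEAS-2B, was -1.12 (-1.52 to -0.71) at the high dose. At the low dose it was -0.68 (-1.07 to -0.29), and this depended on the scaling. With no scaling the A549 and BEAS-2B ratios were -0.68 and -0.64 at the low dose, and -1.19 and -0.26 at the high dose.

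The 5p arm of the same hairpin gave another order. The count of miR-140-5p was 158, 152 and 116 in A549 cells and 373, 201 and 210 in the BEAS-2B line. Its normalised count was 164, 153 and 135 in A549 cells, and 287, 233 and 206 in the BEAS-2B line. All 3 BEAS-2B libraries lay above the 3 A549 libraries.

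In A549 cells the log2 ratio of miR-140-5p was -0.28 at the high dose (-0.64 to 0.07) and -0.11 at the low dose (-0.44 to 0.22), and its ND was under 8 in all 3 libraries. The BEAS-2B values were -0.48 at the high dose (-0.73 to -0.23) and -0.30 at the low dose (-0.56 to -0.05). The first of these was a 1.39-fold difference, just short of the fold criterion, so miR-140-5p was not called, while 16.0% of tested miRNAs were called lower at the high dose and 13.3% at the low dose. It was below 0 in 9 of 9 scalings at the high dose, from -0.89 to -0.30, and was called in 6 of them. By total count its CPM was 507 in the control and 306 and 274 in the treated BEAS-2B libraries.

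**Figure D3:**
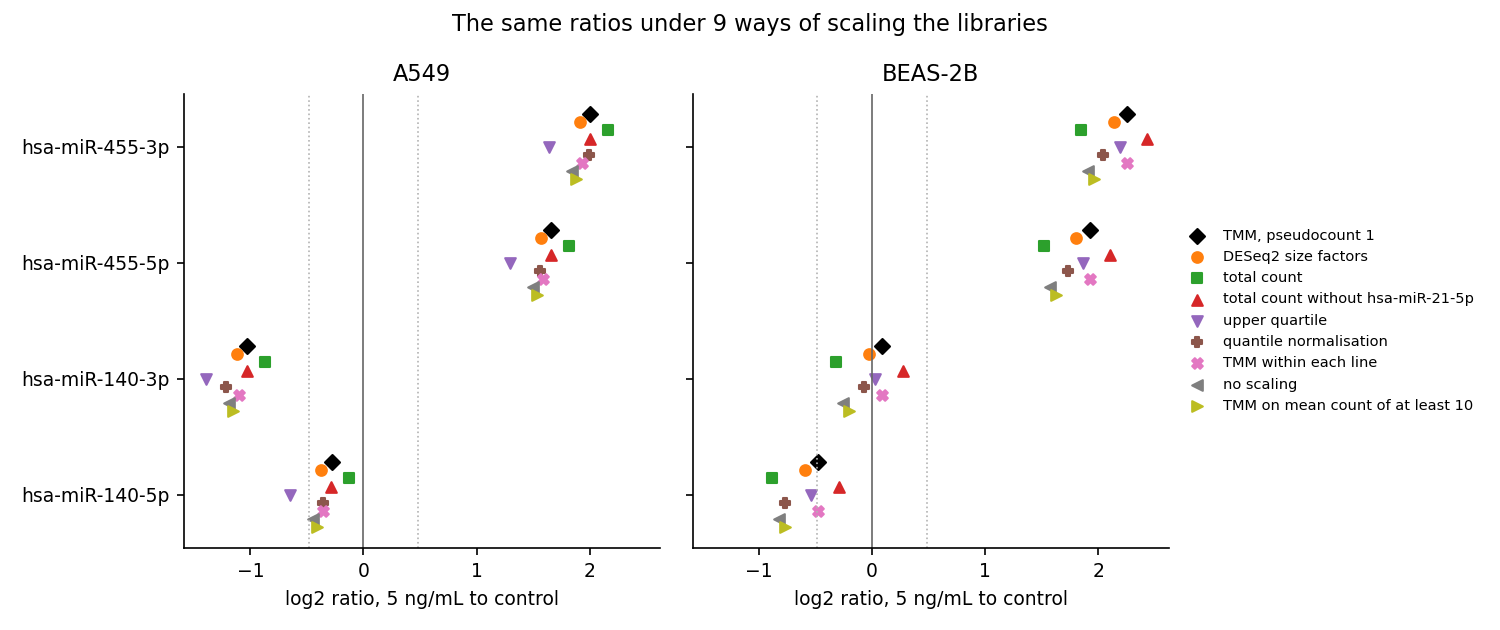
Log2 ratio of the high dose to control for the 4 mature miRNAs in A549 cells (left) and BEAS-2B cells (right), with 1 symbol for each of 9 ways to scale the libraries. The solid line is no difference and the dotted lines are the 1.4-fold criterion. Both miR-455 arms stay beyond the criterion and miR-140-3p in A549 cells stays below it, while in the BEAS-2B line miR-140-3p lies on either side of 0 and miR-140-5p lies on either side of the criterion.

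Part of this spread was a shift of all miRNAs together. Scaling by total count moved the median log2 ratio of tested miRNAs in the BEAS-2B line by -0.41 at the high dose and by -0.43 at the low dose, and upper-quartile scaling moved it in A549 cells by -0.37 and -0.27. Relative to that median, the high-dose log2 ratio of miR-455-3p over the 9 scalings was 2.04 to 2.10 in A549 cells and 2.04 to 2.34 in the BEAS-2B line. miR-455-5p was at 1.66 to 1.69 and 1.73 to 2.01 relative to the median. miR-140-3p was at -1.11 to -0.99 in A549 cells and at -0.07 to 0.17 in the BEAS-2B line, and miR-140-5p at -0.26 to -0.25 and -0.77 to -0.39. The miR-140-5p value in the BEAS-2B line was thus below the median of the tested miRNAs under all 9 scalings.

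A ratio of 2 miRNAs within a library does not depend on how libraries are scaled. With both arms summed, control A549 cells held 338 miR-455 reads and 419 miR-140 reads, or 0.807 miR-455 reads per miR-140 read (0.697 to 0.933). This ratio was 3.18 (2.80 to 3.63) at the low dose and 4.62 (4.004 to 5.35) at the high dose. The BEAS-2B values were 0.502 (0.438 to 0.574) in the control, 2.36 (2.09 to 2.67) at the low dose and 2.47 (2.21 to 2.77) at the high dose. The hairpin with more reads was thus miR-140 in both controls and miR-455 in all 4 treated libraries. Relative to control, the ratio was 3.95 and 5.73 times as high in A549 cells and 4.70 and 4.93 times as high in the BEAS-2B line, at the low and high dose. Ligation and amplification favour some sequences over others, so the ratio within a library is of reads and not of molecules.

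The split between arms is also a quantity within a library. The 3p arm gave 39.6% of miR-455 reads in control A549 cells (exact interval 34.4 to 45.1), 36.4% at the low dose and 45.5% at the high dose. In BEAS-2B cells it gave 45.9% (40.4 to 51.4), 50.9% and 51.6%. The odds ratio of the 3p arm against control was 0.871 and 1.27 in A549 cells and 1.22 and 1.26 in the BEAS-2B line, and each of these 4 intervals included 1. Against control, a change in the split of miR-455 between its arms was thus not resolved beyond counting error. In A549 cells the interval of the 3p share was 33.4 to 39.5 at the low dose and 42.5 to 48.6 at the high dose. These intervals did not overlap.

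The 3p share of miR-140 reads went in opposite directions in the lines. The 3p arm gave 62.3% of miR-140 reads in control A549 cells (57.5 to 66.9), 51.7% (46.1 to 57.4) at the low dose and 49.6% (42.9 to 56.2) at the high dose. In BEAS-2B cells it gave 42.8% (39.0 to 46.7), 47.1% (42.0 to 52.3) and 52.6% (47.8 to 57.3). The controls lay furthest apart, and the libraries at the high dose overlapped. The odds ratio against control was 0.650 (0.477 to 0.883) and 0.595 (0.424 to 0.835) in A549 cells, and 1.19 (0.916 to 1.55) and 1.48 (1.16 to 1.90) in the BEAS-2B line.

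Shifts of this kind were common among other hairpins, a comparison chosen after the miR-140 values were seen. Of 40 hairpins with at least 20 reads of each arm in every library, the interval of the odds ratio excluded 1 for 57.5% in A549 cells at the high dose and for 32.5% at the low dose. In BEAS-2B cells it did so for 42.5% and 35.0%. By size of the shift, miR-140 ranked 12th of the 40 at the high dose in each line, and at the low dose 3rd in A549 cells and 22nd in the BEAS-2B line. Opposite directions in the lines at both doses, with both intervals at the high dose excluding 1, were found for 8 of the 40 hairpins, or 20.0%, and the miR-140 pattern was therefore not particular to it.

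**Figure D4:**
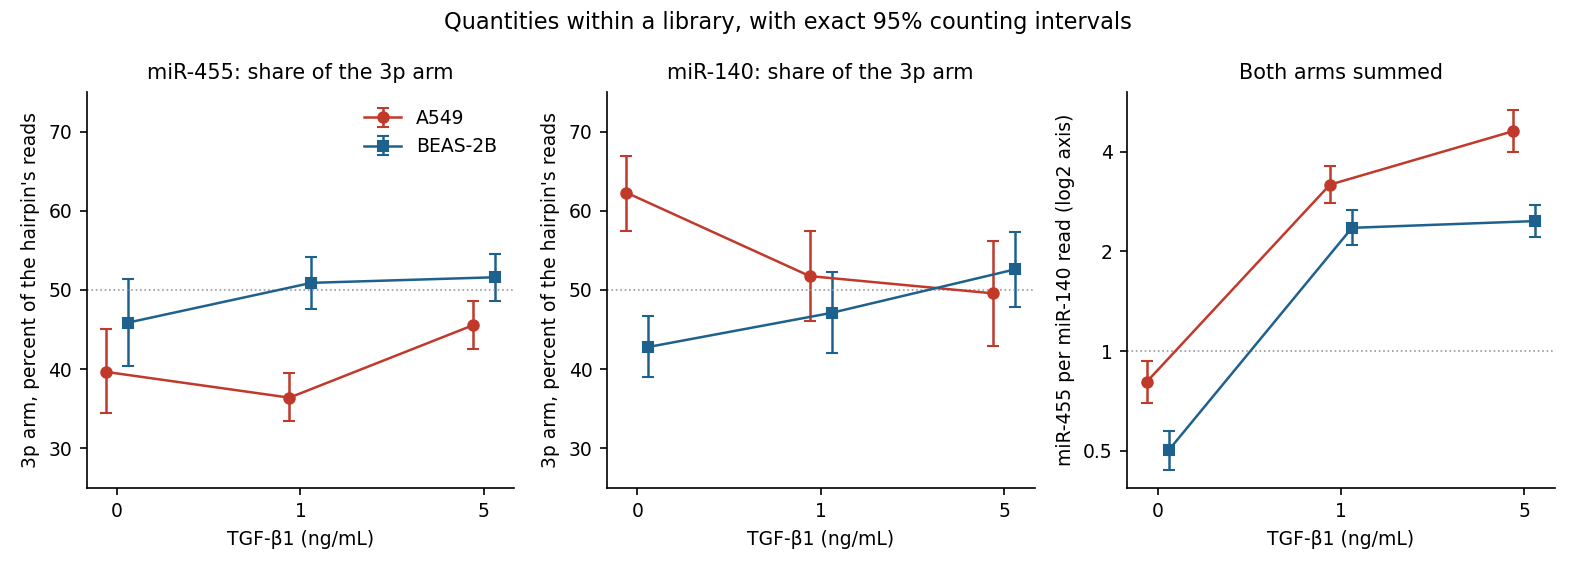
Share of the 3p arm among the reads of miR-455 (left) and miR-140 (middle), in percent, and miR-455 reads per miR-140 read (right, log2 axis), against TGF-β1 dose. Circles are A549 cells, squares are BEAS-2B cells, and bars are exact 95% counting intervals of 1 library. The 3p share of miR-140 goes from 62.3% to 49.6% in A549 cells and from 42.8% to 52.6% in the BEAS-2B line, and the read ratio goes from 0.807 to 4.62 and from 0.502 to 2.47.

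Ordered by normalised count over the 6 libraries, miR-455-3p was highest in A549 cells at the high dose, followed by BEAS-2B cells at the high and the low dose, with overlapping intervals. A549 cells at the low dose came next, and the controls were last and overlapped each other. For miR-455-5p the 2 treated A549 libraries came first and overlapped, the 2 treated BEAS-2B libraries followed and overlapped, and the A549 control lay above the BEAS-2B control. For miR-140-3p the A549 control was highest and the A549 library at the high dose lowest, and each neighbour in the order overlapped the next. miR-140-5p was highest in the BEAS-2B control, and its 3 A549 libraries had overlapping intervals.

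The lines at the same dose differed in 1 control value past the criteria. In control cells miR-140-5p was lower in A549 than in the BEAS-2B line by a log2 ratio of -0.80 (-1.08 to -0.53), and 68.9% of tested miRNAs were called in that comparison. It was called in 8 of 8 scalings. The control ratio was 0.34 for miR-140-3p (0.09 to 0.59) and 0.64 for miR-455-5p (0.34 to 0.94), and neither was called. The first changed sign in 2 of 8 scalings and the second in 0 of 8. At the low dose, miR-455-3p was called lower in A549 cells, at -0.53, where the background was 64.3%, and it was called in 7 of 8 scalings. At the high dose 2 of the 4 met the ND criterion and 0 were called, where the background was 67.8%. There miR-455-3p differed by 0.02 with a sign that varied with the scaling. Under the ND criterion, miR-140-3p and miR-140-5p were lower in A549 cells, at -0.78 (-1.12 to -0.45) and -0.61 (-0.95 to -0.27). Each of these was past the fold criterion in 8 of 8 scalings. Cell line and library cannot be told apart in these values.

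The miRNAs with the pattern most like each of the 4 were found over the 4 log2 ratios to control, among 223 miRNAs whose normalised count averaged at least 50. The measure was the root mean square difference, and the ratios within a line shared a control. These ratios also chose the members, so the places are a description and no added support. For miR-455-3p the nearest was miR-455-5p (0.296), then miR-181a-2-3p (0.339) and miR-181b-5p (0.562). For miR-455-5p the nearest were miR-455-3p, miR-181b-5p (0.316) and miR-181a-2-3p (0.337). miR-181a-2-3p had log2 ratios at the high dose of 2.31 in A549 cells and 1.81 in the BEAS-2B line.

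The arms of miR-140 were not nearest to each other by that measure. The nearest to miR-140-3p were miR-361-3p (0.157), miR-30e-5p (0.177) and miR-210-3p (0.187), and miR-140-5p was in place 67. The nearest to miR-140-5p were miR-1307-3p (0.0868), miR-3184-3p (0.135) and miR-103a-3p (0.140), and miR-140-3p was in place 108. The difference between the miR-140 arms was 0.575, against 0.296 between the arms of miR-455. A place also depends on how many miRNAs have values near those of a member, so the places of the hairpins are not compared. In the order of log2 ratios at the high dose in A549 cells, miR-140-3p lay between miR-4521 (-0.99) and miR-450a-5p (-1.03), while miR-455-3p lay between miR-654-3p (2.08) and miR-381-3p (1.98) and miR-455-5p between miR-127-3p (1.66) and miR-1246 (1.55). In BEAS-2B cells only miR-21-3p (2.12) stood between the arms of miR-455, and miR-181a-2-3p (1.81) came next, while miR-140-5p lay between miR-30a-5p (-0.47) and let-7d-5p (-0.48).

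Other miRNAs whose hairpins lie inside a collagen gene gave too few reads to set beside miR-455. Of 12 such mature miRNAs, 8 were at 0 in all 6 libraries and 0 met the ND criterion. The most abundant was miR-3129-5p, annotated in COL5A2, with counts of 21, 25 and 35 in A549 cells and 13, 8 and 11 in the BEAS-2B line in the order control, low dose, high dose. Its log2 ratio at the high dose was 0.87 in A549 cells (0.08 to 1.75) and 0.10 in the BEAS-2B line (-1.19 to 1.38), so a difference in the BEAS-2B line was not detectable at this depth. No other counted miRNA was annotated in WWP2.

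Of a list of 18 other miRNAs linked to cartilage or collagen in the literature, between 9 and 11 met the ND criterion in a comparison. In A549 cells at the high dose, 11 met the ND criterion, of which 0 were called higher and 3 lower, with a median log2 ratio of -0.03, the same as over all tested miRNAs. Of all tested miRNAs 27.0% were called higher, and the list's share called lower was near the 26.2% of all tested miRNAs. The 3 were miR-27b-3p (-1.10), which is described as targeting the collagenase MMP13, miR-101-3p (-0.77) and miR-146a-5p (-0.51), a brake on inflammatory signalling. At the low dose 2 of 11 were called higher and 1 lower, against 27.0% and 21.9% of all tested miRNAs, with a median of 0.01. In BEAS-2B cells at the high dose, 3 of 10 were called higher and 1 lower, against 20.0% and 16.0% of all tested miRNAs, with a median of 0.13. Among them were miR-193b-3p (1.76) and miR-148a-3p (1.46), which is described as targeting DNMT1. At the low dose 1 of 9 was called higher and 1 lower, against 15.8% and 13.3% of all tested miRNAs, with a median of -0.05. The miR-29 family, which targets collagen messenger RNAs, had 1 call here, miR-29a-3p in the BEAS-2B line at the low dose (-0.62). Its other ratios were also below 0 but short of the fold criterion. They were -0.39 (-0.45 to -0.33) in the BEAS-2B line at the high dose, and -0.47 (-0.53 to -0.41) and -0.33 (-0.39 to -0.27) in A549 cells at the high and low dose. The other listed members of this family were under the ND criterion in every comparison with control, so they could not be called. Among list members under the criterion, miR-495-3p was counted 61, 212 and 151 times in A549 cells and 5, 4 and 9 times in the BEAS-2B line. miR-145-5p, also a marker of smooth muscle and fibroblasts, had counts of 5, 70 and 48 and of 0, 5 and 5. These last 2 were named after their values were seen. miR-675-3p was at 0 in all 6 libraries.

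Of 13 markers of other cell types, 3 met the ND criterion in A549 cells and 1 in the BEAS-2B line, at each dose. In A549 cells 1 was called higher at each dose, miR-143-3p, typical of smooth muscle and fibroblasts, and 0 were called lower. Over all tested miRNAs there, 27.0% were called higher at each dose. The miR-143-3p counts were 148, 1658 and 1106 in A549 cells, and 7, 62 and 101 in the BEAS-2B line, where it was under the criterion. The endothelial marker miR-126-3p was called lower in the BEAS-2B line at the high dose, at -0.64, where 16.0% of tested miRNAs were called lower. It was not called at the low dose (-0.18) or in A549 cells. The markers miR-223-3p, miR-133a-3p and miR-206 were at 0 in every library. The summed normalised count of the 13 was 1682, 3512 and 3072 in A549 cells in the order control, low dose, high dose, and 329, 368 and 319 in the BEAS-2B line. The rise of the A549 sum lay mostly in miR-143-3p. In A549 cells miR-126-3p had counts of 1003, 1280 and 1166, and the neural marker miR-9-5p had 447, 484 and 314.

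The 6 epithelial markers summed to normalised counts of 228, 386 and 346 in A549 cells and 363, 344 and 325 in the BEAS-2B line. miR-200b-3p, the most abundant of them, was called higher in A549 cells at the low dose (0.91), where 27.0% of tested miRNAs were called higher. Its BEAS-2B log2 ratios were -0.11 and 0.0028 at the high and low dose. The other epithelial markers were under the ND criterion in every comparison with control. At the high and low dose, miR-200a-3p was at -0.78 (-1.43 to -0.18) and -0.46 (-1.10 to 0.13) in the BEAS-2B line. miR-429 was at 1.31 (0.15 to 2.81) and 1.31 (0.19 to 2.79) in A549 cells. Every other interval of these markers included 0. By total count, the BEAS-2B sums were 642, 452 and 433 CPM for the epithelial markers and 582, 484 and 424 CPM for those of other cell types, so their course depended on the scaling of the control library that stood apart. The part of these markers in the miR-455 and miR-140 values was not tested, and in bulk libraries fewer cells with a miRNA and less of it per cell cannot be told apart.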

How the data were processed

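Small RNA libraries were prepared, per the labels, from TRIzol-extracted total RNA with the NEBNext Multiplex Small RNA kit, 1 for each cell line and dose. The authors deposited raw read counts per mature miRNA (2588 names per library). The submitters' processing notes name Bowtie2 and bedtools; their settings, the annotation release, the build and the handling of strand were not given in the sources used here. No molecular identifiers were described.

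Groups were taken from the sample labels. Counts were scaled by TMM over all 6 libraries (edgeR 4.0.16, R 4.3.3) to the mean effective size of 749498, and a pseudocount of 1 was added before log2. Intervals (95%) were exact Clopper-Pearson intervals of the conditional binomial share (scipy 1.17.1), except those of differences between 2 log2 ratios, which were normal approximations. The code was tested on simulated data. Alternatives were 8 other scalings (DESeq2 1.42.0 and limma 3.58.1 among them), other pseudocounts and other ND and fold thresholds.

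The members and lists were chosen with earlier results of these data known. The rule for naming miRNAs took the 4 members, the 3 nearest patterns of each, neighbours in rank, miRNAs hosted in collagen genes or WWP2, and up to 6 of the cartilage list. miR-675-3p, miR-495-3p, miR-145-5p, miR-4277, the cell type markers and miR-21-5p were named in addition, with their values known.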

Additional observations from a re-analysis of the deposited data

Results flagged for a closer look

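The 3p share of miR-140 reads changed between control and 5 ng/mL TGF-β1 by -12.7 percentage points in A549 cells and by 9.80 percentage points in BEAS-2B cells, a difference of -22.5 percentage points. At 1 ng/mL the changes were -10.5 and 4.31 percentage points. The lines moved in opposite directions at both doses, which held for 15 of the 40 hairpins compared. In BEAS-2B cells at 1 ng/mL the interval of the odds ratio included 1. The difference was not tested, since each group had 1 library, and the doses shared a control library.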

How the results depend on the processing

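With 1 library per group, leaving out a replicate had no meaning. No paired analysis was possible because each group had 1 library. Depth limits the values of under 200 reads most, and differences smaller than their counting intervals were not detectable. Values not given here kept within counting error of those reported, and 0 called values changed sign. For the values below, the cause was not tested. In each list of 4 log2 ratios the order is miR-455-3p, miR-455-5p, miR-140-3p and miR-140-5p.

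Against control, upper-quartile scaling gave 1.64, 1.29, -1.40 and -0.65 in A549 cells at 5 ng/mL, and 1.32 for miR-455-5p at 1 ng/mL. In BEAS-2B cells at 5 ng/mL, total-count scaling gave 1.85, 1.52, -0.32 and -0.89, no scaling gave 1.91, 1.58, -0.26 and -0.83, and TMM on miRNAs with a mean count of at least 10 gave 1.96, 1.63, -0.20 and -0.77. Quantile normalisation gave -0.77 for miR-140-5p. At 1 ng/mL, total-count scaling gave 1.76, 1.47, -0.48 and -0.73, and no scaling gave 1.60, 1.31, -0.64 and -0.89.

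For 5 against 1 ng/mL in A549 cells, no scaling gave 0.41 for miR-455-3p and -0.14 for miR-455-5p, and total-count scaling gave 0.91 and 0.37. In BEAS-2B cells no scaling gave 0.31 and 0.27.

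For control A549 against control BEAS-2B cells, total-count scaling gave -0.26, 0.10, -0.20 and -1.34, and no scaling gave -0.16, 0.20, -0.096 and -1.23. TMM on miRNAs with a mean count of at least 10 gave 0.32, 0.019 and -1.12 for the last 3, and quantile normalisation gave -0.14 for miR-455-3p, 0.30 for miR-455-5p and -1.17 for miR-140-5p. Between the lines at 1 ng/mL, miR-455-3p was at -0.32 with no scaling, -0.84 with quantile normalisation, -0.77 by total count and -0.83 by upper quartile. miR-455-5p was at 0.54 with no scaling, -0.069 with quantile normalisation, 0.081 by total count, 0.021 by upper quartile and 0.13 with TMM on a mean count of at least 10. Quantile normalisation gave -0.73 and -1.04 for the arms of miR-140. At 5 ng/mL, miR-455-3p and miR-455-5p were at -0.22 and 0.13 with no scaling, -0.19 and 0.13 with quantile normalisation, -0.24 and 0.11 by total count without miR-21-5p, and -0.26 and 0.088 by upper quartile.

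The number of miRNAs past the criteria was 75 and 67 for A549 and 45 and 35 for BEAS-2B, the higher dose first. A fold change of at least 2 gave 42, 21, 15 and 13. An ND of at least 8 in both libraries gave 41, 44 and 29 for the first 3, and an ND of at least 9 gave 26 and 23 in BEAS-2B cells. There, total-count scaling gave 79 and 70, no scaling 74 and 88, and TMM on a mean count of at least 10 gave 70 at 5 ng/mL. With the more abundant arm of each hairpin alone, the miR-455 to miR-140 read ratio was 3.91 in A549 cells at 1 ng/mL and 0.634 in control BEAS-2B cells.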
